A study of Mus musculus with 6 samples.

Results

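The genes described here are those of the T cell receptor and of the T lineage: the CD3 chains, the coreceptors, the receptors and signalling proteins that act with them, and the transcription factors that set and hold T cell identity. They were taken from a list of 37 named genes, of which 31 had an array entry with a single gene symbol, out of 14860 genes measured in all. Ctla4, Lck, Skap1, Trat1, Tcf7 and Foxp3 were not analysed here. The RNA was that of splenocytes held by Sca-1 magnetic beads, and each mouse had 1 Affymetrix exon array. Sca-1 is a surface protein of primitive blood cells that mature lymphocytes can also carry. All 6 animals, controls included, carried both the NRASD12 and the BCL-2 transgene in an FVB/N strain used to model acute myeloid leukaemia. Of these, 3 mice had been given ABT-737, an inhibitor of BCL-2, BCL-XL and BCL-W, at 75 mg/kg in 3 doses a week for 33 days. The other 3 mice were controls, which the series text calls untreated, although the dosing line stands alike on all 6 sample records. The sources used here do not give the promoters that drive the transgenes, the age of the mice or whether controls received vehicle.

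The T cell receptor recognises a peptide on an MHC molecule, but it has no signalling tail of its own and relies on the CD3 chains, whose tails carry tyrosine motifs. Coreceptors bring the kinase LCK to these motifs, ZAP-70 binds them once phosphorylated, and the adaptors LAT and SLP-76 then assemble the enzymes that raise calcium and activate RAS and protein kinase C. In the spleen, T cells are a major normal lymphocyte population beside B cells, and many of these genes are also used by NK cells.

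Values are log2 signals as deposited, so a difference of 1 is a doubling, and levels of different genes cannot be ranked because probes differ in brightness. Differences are ABT-737 minus control, fitted with limma over all genes, and intervals cover 95%. The mice are separate animals. Array medians ran from 7.07 to 7.14 in ABT-737 mice and from 6.86 to 7.13 in control mice, the lowest being control mouse 2. The Y-linked gene Eif2s3y stood at 9.96 to 10.27 in ABT-737 mice, against 10.16, 9.87 and 4.23 in control mice 1, 2 and 3. Kdm5d, also Y-linked, stood at 9.06, 8.86 and 8.54 in ABT-737 mice, against 8.67, 8.05 and 4.77 in control mice. Control mouse 3 thus differed from the rest in sex-linked signal, while no ABT-737 mouse was low in these genes.

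The T lineage genes differed little between the groups. None of the 31 passed an adjusted p of 0.05 in the limma fit, where 0% of all genes were called, and the smallest adjusted p among them was 0.416. At an unadjusted p under 0.05, 1 member was higher in ABT-737 mice, against 5.75% of all genes, and 2 members were lower, against 4.45% of all genes. These were Lcp2, which encodes the adaptor SLP-76, on the higher side, and the transcription factors Ikzf2 and Tbx21 on the lower side. All ABT-737 mice lay above all controls in 1 member, against 6.14% of all genes, and below all controls in 1 member, against 7.19% of all genes. These shares, 3.23% of members for each non-overlap and for the higher calls and 6.45% for the lower calls, were near or under those of all genes.

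The median difference of the 31 genes was -0.12, against -0.02 for all genes. Means were higher in ABT-737 mice for 12 members and lower for 19, or 61.3% lower, against 55.3% of all genes. Differences ran from -0.66 for Ccr7 to 0.50 for Lef1, and 30 of the 31 were under 0.5 in size. The intervals of 27 members lay wholly between -1 and 1, so for these a doubling or a halving lay outside the interval, while smaller changes could not be told from none with 3 mice a group. The median half-width of the intervals was 0.42.

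**Figure D1:**
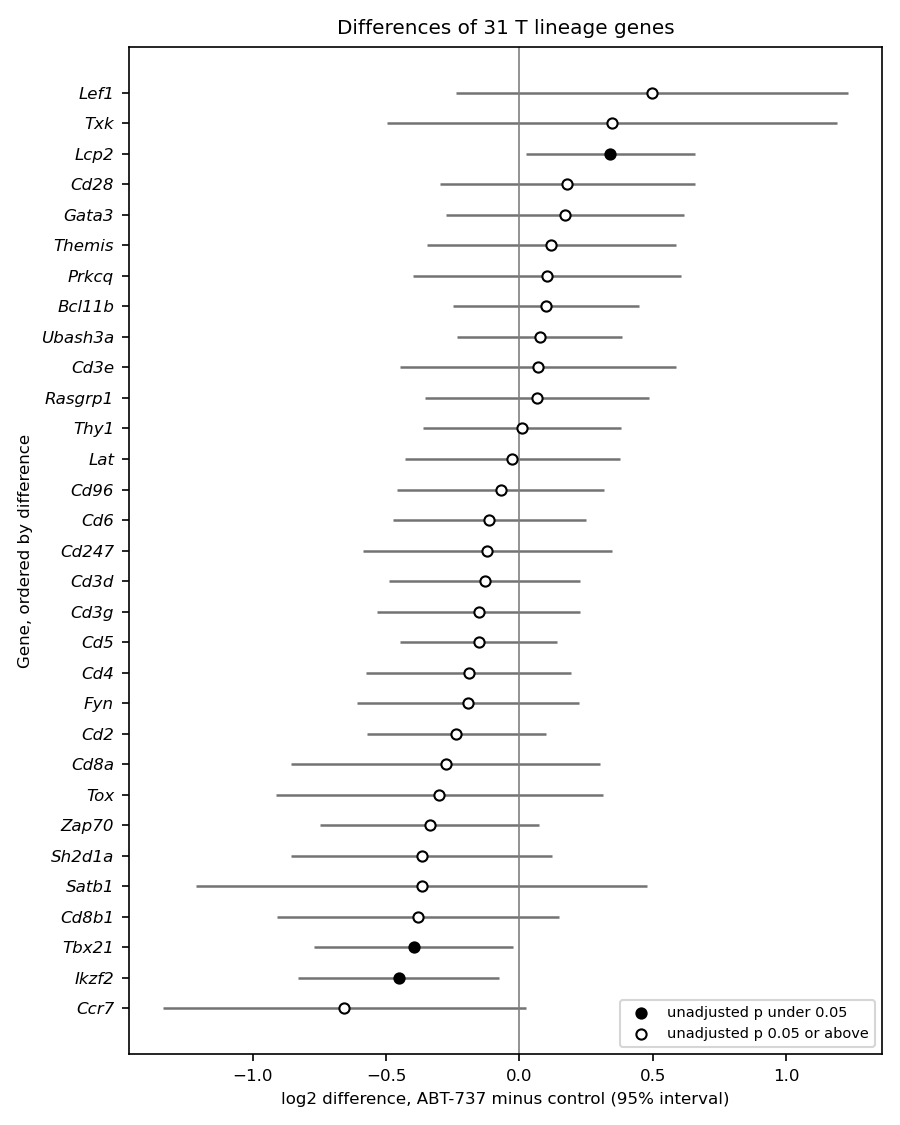
Differences of the 31 T lineage genes in log2 units, ABT-737 minus control, with 95% intervals from limma (3 mice a group), ordered by size. Filled points mark the 3 genes at an unadjusted p under 0.05, Lcp2 on the higher side and Tbx21 and Ikzf2 on the lower, and the other 28 intervals cross 0.

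The CD3 chains are the defining T cell markers in this set. Cd3d, Cd3e and Cd3g are direct neighbours on mouse chromosome 9, in the order Cd3g, Cd3d, Cd3e among protein-coding genes of assembly GRCm38.p6. Their promoters are shown because these 3 genes make up the CD3 signal used below as a yardstick. Their signals ranked the mice alike in the controls, an order that other members such as Cd247 and Cd5 shared. In the ABT-737 mice they did not rank alike, as Cd3g was lowest in a different mouse from Cd3d and Cd3e. The windows run from 250 bases before to 50 bases after the gene start and are credited to RefSeq, build GRCm38.p6, each printed 5′ to 3′ on the gene's own strand. Capitals mark matches to the motifs given next.
Cd3g, chr9:44980382-44980681, minus strand: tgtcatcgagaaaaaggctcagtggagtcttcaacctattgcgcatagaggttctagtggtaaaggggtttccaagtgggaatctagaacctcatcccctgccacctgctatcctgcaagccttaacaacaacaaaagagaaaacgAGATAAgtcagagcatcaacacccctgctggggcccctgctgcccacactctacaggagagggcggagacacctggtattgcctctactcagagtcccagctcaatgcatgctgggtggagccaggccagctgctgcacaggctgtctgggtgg
Cd3d, chr9:44981536-44981835, plus strand: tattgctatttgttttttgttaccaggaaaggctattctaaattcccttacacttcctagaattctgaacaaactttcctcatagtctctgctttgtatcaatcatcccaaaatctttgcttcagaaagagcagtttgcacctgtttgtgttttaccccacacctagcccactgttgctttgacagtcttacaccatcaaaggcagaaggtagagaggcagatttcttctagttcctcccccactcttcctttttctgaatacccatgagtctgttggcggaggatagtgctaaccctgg
Cd3e, chr9:45009562-45009861, minus strand: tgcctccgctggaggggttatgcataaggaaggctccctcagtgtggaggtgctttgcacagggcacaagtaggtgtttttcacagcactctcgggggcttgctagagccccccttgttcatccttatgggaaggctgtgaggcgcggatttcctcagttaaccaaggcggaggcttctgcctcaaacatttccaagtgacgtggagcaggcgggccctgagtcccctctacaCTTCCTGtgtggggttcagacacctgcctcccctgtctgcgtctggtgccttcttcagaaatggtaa

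Motifs were searched on both strands: TGTGGT for RUNX, CNGGAAG for ETS, CTTTGAA for TCF/LEF, AGATAA for GATA factors and TATAAA for the TATA box. No search pattern is contained in another. The Cd3e window held the ETS letters, read on the opposite strand, and the Cd3g window held the GATA letters, while the Cd3d window held none of the 5. A promoter was matched for 21 of the 31 members, taking the first listed start of each gene. ETS letters were in 7 of these 21 (33.3%), against 34.8% of 11894 promoters of genes on the array. GATA letters were in 3 (14.3% against 9.1%), TCF/LEF letters in 2 (9.52% against 4.45%), RUNX letters in 2 (9.52% against 13.3%) and TATA letters in 2 (9.52% against 11.6%). These are matches of letters in a short window and not binding sites.

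Cd3e, the CD3 epsilon chain, stood at 12.56, 11.80 and 11.90 in ABT-737 mice 1, 2 and 3, against 12.23, 11.99 and 11.83 in control mice 1, 2 and 3. Cd3g, the gamma chain, stood at 11.86, 11.75 and 11.46 in ABT-737 mice and 12.06, 11.85 and 11.62 in control mice. Cd3d, the delta chain, stood at 9.24, 8.91 and 8.98 in ABT-737 mice and 9.41, 9.11 and 9.0 in control mice. The groups overlapped in all 3 genes, with mouse 1 the highest of the ABT-737 mice and control mouse 1 the highest of the controls each time. The difference was 0.07 for Cd3e (interval -0.45 to 0.59), -0.13 for Cd3d (-0.49 to 0.23) and -0.15 for Cd3g (-0.53 to 0.23), with limma adjusted p values of 0.949, 0.838 and 0.811. The sign of the Cd3e difference turned to -0.02 when arrays were centred on their medians. Cd247, the zeta chain, whose 3 tyrosine motifs make it the main docking site for ZAP-70, stood at 8.47, 8.02 and 7.75 in ABT-737 mice and 8.33, 8.27 and 8.0 in control mice, a difference of -0.12 (-0.59 to 0.35). The CD3 genes thus gave no difference beyond the spread between mice. In these bulk samples, fewer cells of a type and less RNA per cell cannot be told apart.

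The coreceptors had lower means in ABT-737 mice, none of them past a threshold. Cd4, which marks helper T cells and some dendritic and myeloid cells, stood at 10.83, 10.27 and 10.40 in ABT-737 mice, against 10.78, 10.60 and 10.69 in control mice. Cd8a, of the cytotoxic T cell coreceptor, stood at 9.48, 10.04 and 9.0 in ABT-737 mice and 9.80, 9.86 and 9.69 in control mice. Its partner chain and chromosomal neighbour Cd8b1, which lies beside it on chromosome 6, stood at 10.18, 10.82 and 9.90 in ABT-737 mice and 10.63, 10.72 and 10.69 in control mice. Both CD8 chains were highest in ABT-737 mouse 2 and lowest in ABT-737 mouse 3 among all 6 mice, while Cd4 was lowest in ABT-737 mouse 2. Differences were -0.19 for Cd4 (-0.57 to 0.19), -0.28 for Cd8a (-0.86 to 0.30) and -0.38 for Cd8b1 (-0.91 to 0.15), with limma adjusted p values of 0.764, 0.772 and 0.639.

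The treated mice differed among themselves in the CD8 chains far more than the controls did. The SD of Cd8a was 0.52 in ABT-737 mice and 0.09 in control mice, and that of Cd8b1 was 0.47 in ABT-737 mice and 0.05 in control mice (n = 3 each). A wider spread in ABT-737 mice was not particular to the CD8 chains. The SD of Cd2 was 0.25 in ABT-737 mice against 0.01 in control mice, and that of Thy1 was 0.29 against 0.06. Other members went the other way, such as Zap70 at 0.14 against 0.31 and Ubash3a at 0.07 against 0.20. Within each array, Cd4 minus Cd8a was 1.35, 0.23 and 1.40 in ABT-737 mice 1, 2 and 3, against 0.98, 0.74 and 1.0 in control mice. Cd8a minus Cd8b1 moved over a narrower range, -0.70, -0.78 and -0.90 in ABT-737 mice and -0.83, -0.86 and -1.0 in control mice. Means of Cd4 minus Cd8a were 0.99 and 0.91 in ABT-737 and control mice, and the groups overlapped (two-sided exact permutation p = 1), with ABT-737 mouse 2 lowest of all. Whether the spread itself differed between the groups was not tested. ABT-737 mouse 2 was also the highest in the NK cell list, with a mean of 0.20 relative to the controls against -0.38 and -0.42 in ABT-737 mice 1 and 3, and the part of NK cells in the CD8 signal was not tested.

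**Figure D2:**
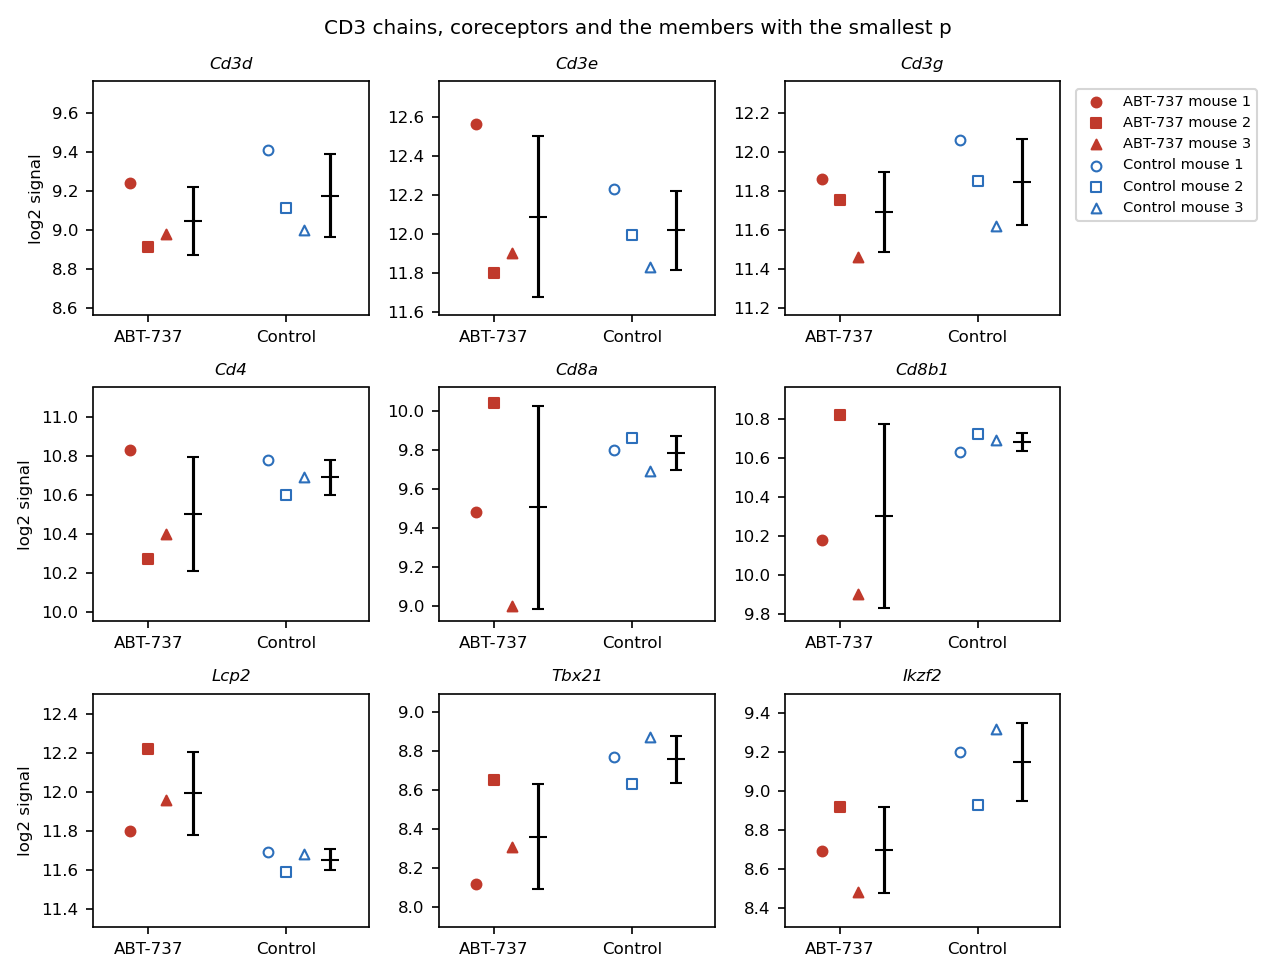
Log2 signal of the CD3 chains Cd3d, Cd3e and Cd3g, the coreceptors Cd4, Cd8a and Cd8b1, and the 3 members at an unadjusted p under 0.05, Lcp2, Tbx21 and Ikzf2. Each point is 1 mouse, with ABT-737 left of control, and black bars show mean and SD (n = 3); every panel spans the same range of log2 units, and the groups separate in the Lcp2 and Ikzf2 panels.

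Among the surface receptors, Ccr7, the chemokine receptor that brings naive T cells and B cells into lymphoid tissue, had the largest difference of the set. Ccr7 stood at 12.19, 11.17 and 11.62 in ABT-737 mice, against 12.42, 12.63 and 11.90 in control mice. ABT-737 mouse 1 lay above control mouse 3, so the groups overlapped. Ccr7 was lower by 0.66 on average in ABT-737 mice, a difference of -0.66 (SE 0.29; interval -1.34 to 0.02; limma unadjusted p = 0.0564, adjusted p = 0.510). Without ABT-737 mouse 1 the difference was -0.92 (unadjusted p = 0.00630, adjusted p = 0.108), and without control mouse 3 it was -0.87. B cell markers had lower means as well, as given below, and B cells also carry Ccr7. The part of B cells in the Ccr7 difference was not tested.

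The other 6 surface receptors lay closer to 0. Cd2, an adhesion receptor, was at -0.24 (-0.57 to 0.10), with the control mice at 11.62, 11.62 and 11.64 and ABT-737 mice at 11.64, 11.15 and 11.38. The neighbours Cd5 and Cd6 on chromosome 19, both scavenger receptor family members that restrain T cell receptor signals, were at -0.15 and -0.11. Thy1, a classic mouse T cell surface glycoprotein, was at 0.01 (-0.36 to 0.38) and Cd96, shared with NK cells, at -0.07 (-0.46 to 0.32). Cd28, the main costimulatory receptor of naive T cells, was at 0.18 (-0.30 to 0.66). The signs of Thy1 and Cd96 were not stable, as Thy1 was -0.04 after quantile normalization and -0.08 after centring, and Cd96 was 0.02 with array weights.

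Of the signalling proteins, Lcp2 was the member with a higher signal in every ABT-737 mouse. Lcp2 stood at 11.80, 12.22 and 11.96 in ABT-737 mice, against 11.69, 11.59 and 11.68 in control mice. The groups did not overlap. The difference was 0.34 (SE 0.14; interval 0.02 to 0.66; 1.27-fold; limma unadjusted p = 0.0389, adjusted p = 0.460), and it kept an unadjusted p under 0.05 in 5 of 13 alternatives. SLP-76 is also used by neutrophils, macrophages, mast cells and platelets. The granulocyte list was higher in the same mice, with list means of 1.09, 2.14 and 2.11 relative to the controls in ABT-737 mice 1, 2 and 3, and its part in the Lcp2 difference was not tested.

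The kinases and the remaining adaptors split between both directions. Zap70 was at -0.34 (-0.75 to 0.07), with ABT-737 mice at 9.27, 9.01 and 9.03 and control mice at 9.78, 9.35 and 9.19. Sh2d1a, the SAP adaptor of SLAM family receptors, was at -0.37 (-0.86 to 0.12) and the SRC family kinase Fyn at -0.19 (-0.61 to 0.22). Txk, a TEC family kinase of T cells, was at 0.35 (-0.50 to 1.19), and without ABT-737 mouse 1 it was -0.02. Prkcq, the protein kinase C isoform of the T cell synapse, was at 0.10, and Themis, needed for thymocyte selection, at 0.12. Rasgrp1, which activates RAS downstream of diacylglycerol, was at 0.07, Ubash3a, a phosphatase-like inhibitor of the receptor, at 0.08, and Lat, the membrane scaffold of the pathway, at -0.03. Leaving out ABT-737 mouse 1 turned Prkcq to -0.13 and Themis to -0.03.

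The transcription factors held both members with lower calls. Ikzf2, which encodes Helios, a factor of regulatory T cells that is also made in some activated T cells and stem cells, stood at 8.69, 8.92 and 8.48 in ABT-737 mice and 9.20, 8.93 and 9.32 in control mice. The groups did not overlap, but ABT-737 mouse 2 and control mouse 2 were close to each other. The difference was -0.45 (SE 0.16; interval -0.83 to -0.08; 1.37-fold lower; limma unadjusted p = 0.0246, adjusted p = 0.416), and the unadjusted p stayed under 0.05 in 9 of 13 alternatives. Tbx21, which encodes T-bet, the factor of type 1 helper, cytotoxic and NK cells, stood at 8.12, 8.65 and 8.31 in ABT-737 mice and 8.77, 8.63 and 8.87 in control mice. ABT-737 mouse 2 lay just above control mouse 2. The difference was -0.40 (SE 0.16; interval -0.77 to -0.02; limma unadjusted p = 0.0405, adjusted p = 0.462), under 0.05 in 7 of 13 alternatives.

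Lef1, a partner of TCF-1 in naive T cells and early thymocytes, had the largest positive difference, 0.50 (-0.24 to 1.23). Its values were 10.81, 9.98 and 9.84 in ABT-737 mice, against 10.16, 9.72 and 9.26 in control mice, and the groups overlapped. Satb1, a chromatin organiser of thymocytes, was at -0.37 (-1.21 to 0.48), with ABT-737 mice at 11.67, 10.61 and 10.62 and control mice at 11.78, 11.47 and 10.75. Tox, which acts in CD4 lineage development and in exhausted CD8 cells, was at -0.30 (-0.91 to 0.31). Gata3, the factor of type 2 helper cells and of early T cell development, was at 0.17 and Bcl11b, which fixes T lineage commitment, at 0.10.

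Mouse-to-mouse differences were shared across the set. ABT-737 mouse 1 was strictly the highest of the ABT-737 mice in 22 of 31 members (71%), against 21.4% of all genes. Control mouse 1 was strictly the highest of the controls in 24 of 31 (77.4%), against 44.4% of all genes. Relative to the control mean, the mean of the 31 genes was 0.16, -0.14 and -0.29 in ABT-737 mice 1, 2 and 3, against 0.18, -0.03 and -0.15 in control mice 1, 2 and 3, so the range within each group exceeded the mean difference between them. The members therefore are not 31 separate observations. The largest gaps between ABT-737 mouse 1 and the other ABT-737 mice were in Txk, at 9.51 against 8.30 and 8.53, and in Satb1 and Lef1, given above.

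**Figure D3:**
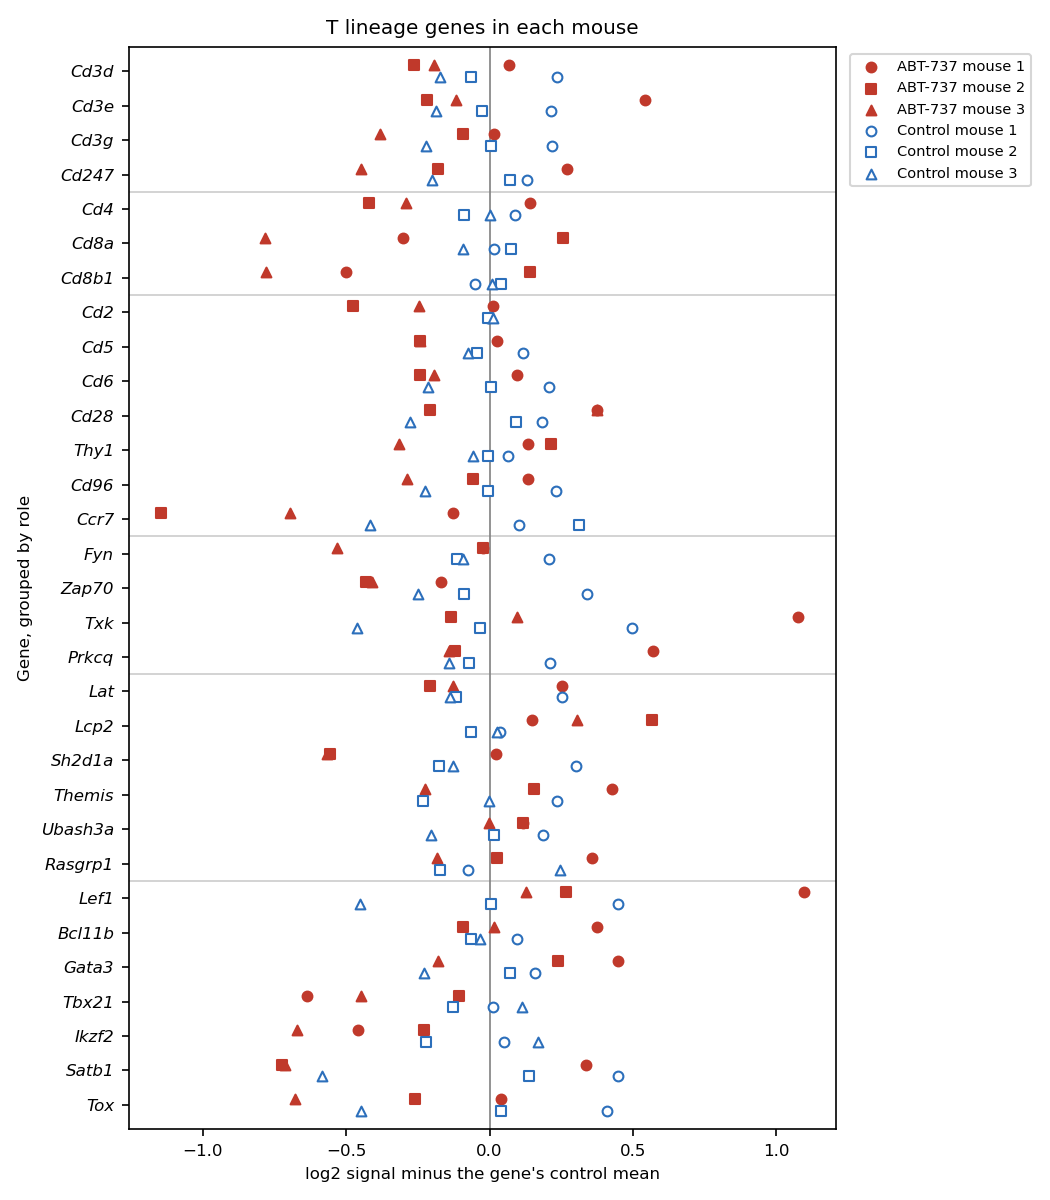
Each of the 31 T lineage genes in each mouse, as log2 signal minus the gene's mean in the controls, with genes grouped by role and ABT-737 mice drawn above control mice in each row. ABT-737 mouse 1 lies to the right of the other ABT-737 mice in 22 genes, while in Cd8a and Cd8b1 it is ABT-737 mouse 2 that lies highest.

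Other genes of the pathway were taken from 3 further lists. Of 34 measured genes of T cell receptor signalling, 17 had higher and 17 lower means, with a median of -0.02 and none at an adjusted p under 0.05. At an unadjusted p under 0.05, 1 was higher and 1 lower, or 2.94% each, under the 5.75% and 4.45% of all genes. The lower one was Ptpn22, a phosphatase that dampens LCK and ZAP-70 and is also active in B cells, at 10.93, 10.34 and 10.49 in ABT-737 mice against 11.60, 11.37 and 10.99 in control mice. The difference was -0.73 (SE 0.21; limma unadjusted p = 0.00969, adjusted p = 0.358). The higher one was Orai1, the pore of the store-operated calcium channel, at 0.35 (SE 0.13, adjusted p = 0.435). Fyb, an adaptor that binds SLP-76, was at 0.48 (-0.03 to 0.99). Of 22 regulators of T lineage development, 10 had higher and 12 lower means, none at an unadjusted p under 0.05 by limma, with the Notch target Dtx1 at -1.01 (-2.12 to 0.11), Zbtb7b, the CD4 lineage factor ThPOK, at 0.53 (-0.07 to 1.13) and the receptor Notch1 at 0.27 (-0.05 to 0.59).

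The third list, of other T cell surface and homing receptors, stood lower. Of 22 measured, 17 had lower means, with a median of -0.32, and 6 were lower at an unadjusted p under 0.05 (27.3%, against 4.45% of all genes), while 0 were higher and none passed the adjusted threshold. This list was drawn up when an earlier result for Icos was known, so its count is a description. The 6 were the costimulators Icos and Tnfrsf9 (4-1BB), which activated T cells display, the inhibitory receptors Pdcd1 (PD-1) and Btla, and the SLAM family receptors Ly9 and Slamf6. Btla, Ly9 and Slamf6 are also carried by B cells.

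Icos stood at 10.29, 10.26 and 9.97 in ABT-737 mice, against 11.79, 11.41 and 10.82 in control mice, with no overlap. The difference was -1.17 (SE 0.24; interval -1.74 to -0.59; 2.24-fold lower; limma unadjusted p = 0.00182, adjusted p = 0.277). Tnfrsf9 stood at 7.93, 8.09 and 7.73 in ABT-737 mice and 9.28, 8.99 and 8.41 in control mice, a difference of -0.98 (SE 0.23; adjusted p = 0.292). Ly9 stood at 9.65, 9.42 and 9.43 in ABT-737 mice and 10.07, 9.86 and 10.16 in control mice, a difference of -0.53 (SE 0.13; adjusted p = 0.319). Icos, Tnfrsf9, Ly9 and Ptpn22 each kept an unadjusted p under 0.05 in 13 of 13 alternatives, and an adjusted p under 0.05 in 0 of 13. The 13 are not all separate checks. Entry means left these differences unchanged, and the sex covariate gave the same estimates as leaving out control mouse 3. Pdcd1 stood at 7.32, 7.45 and 7.45 in ABT-737 mice, and the control mice, at 9.67, 8.38 and 7.76, were spread widely.

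The CD3 signal served as a yardstick for these receptors. The mean of Cd3d, Cd3e and Cd3g was 11.22, 10.82 and 10.78 in ABT-737 mice and 11.23, 10.98 and 10.82 in control mice. Icos minus this mean was -0.93, -0.56 and -0.81 in ABT-737 mice, against 0.56, 0.43 and 0.003 in control mice. Tnfrsf9 minus this mean was -3.29, -2.73 and -3.05 in ABT-737 mice, against -1.95, -1.99 and -2.41 in control mice. Neither measure overlapped between the groups, and the two-sided exact permutation p was 0.1 for each, the smallest that 3 mice against 3 can give. Among the members themselves, Ccr7 minus the CD3 mean was 0.97, 0.35 and 0.84 in ABT-737 mice and 1.19, 1.65 and 1.08 in control mice, and Lef1 minus the CD3 mean was -0.41, -0.84 and -0.94 in ABT-737 mice and -1.07, -1.26 and -1.56 in control mice. These did not overlap either (exact permutation p = 0.1 each). Nor did Pdcd1, Ly9 and Ptpn22 on this scale, with differences in means, ABT-737 minus control, of -1.13, -0.46 and -0.66, nor the B cell gene Ms4a1, with a difference of -0.69 beside -0.59 for Ccr7 (exact permutation p = 0.1 each). The within-array measures tested by exact permutation numbered 16, on genes chosen after their values were seen, the coreceptor pairs and the CD3 mean itself included. All 14860 genes were also put on the CD3 scale, so these 16 do not count all that was looked at. None had a Benjamini-Hochberg adjusted exact permutation p under 0.2 over these 16. With a floor of 0.1 none could have passed 0.05, so the adjustment decides nothing. For Lcp2, Ikzf2 and Tbx21 minus the CD3 mean the groups overlapped, with exact permutation p values of 0.3, 0.3 and 0.4. Of the 31 members, the CD3 chains that make the scale included, 3 lay below and 2 above all controls on the CD3 scale, against 2.40% and 3.16% of all genes. Those below were Ccr7, Zap70 and Sh2d1a, and those above were Lef1 and Prkcq, so Ccr7 and Lef1 were not alone in this. Signals relative to CD3 show unequal change within an array and not which of the genes changed.

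Markers of some other cell types differed between the groups by more than the T lineage genes. The granulocyte list was higher, with 10 of 10 genes above 0, a median of 1.69 and summed log2 signals of 118.1 to 128.5 in ABT-737 mice against 101.9 to 110.4 in control mice, led by Cxcr2 at 2.93 and Csf3r at 1.83. The B cell list was lower, with 10 of 10 genes below 0, a median of -0.55 and sums of 107.0 to 118.1 in ABT-737 mice against 114.9 to 119.4 in control mice, with Ms4a1 (CD20) at -0.76 and the kinase Blk at -0.84. In the B cell list ABT-737 mouse 1, at 0.07, lay within the controls, while ABT-737 mice 2 and 3 lay at -1.05 and -0.85. Of 5 NK cell genes 4 were lower, with a median of -0.35, sums of 35.3 to 38.4 in ABT-737 mice against 36.8 to 37.7 in control mice, and Prf1 (perforin) at -0.53 and Nkg7 at -0.35. The remaining NK cell gene was higher, at 0.53. All ABT-737 mice lay above all controls in 1 NK cell gene and below them in 1, against 6.14% and 7.19% of all genes. The sum over the 31 T lineage genes was 302.5 to 316.3 in ABT-737 mice against 306.7 to 317.0 in control mice. All 8 monocyte and macrophage, 6 erythroid and 5 plasma cell genes measured had higher means in ABT-737 mice, while 1 of 5 dendritic cell genes and 2 of 9 primitive blood cell genes did. Relative to the controls, the erythroid list stood at -0.51, 0.85 and 1.61 in ABT-737 mice 1, 2 and 3. Control mice 1, 2 and 3 stood at 0.22, -0.07 and -0.14, so ABT-737 mouse 1 was the lowest of all mice in that list. At an unadjusted p under 0.05, 9 granulocyte, 3 monocyte and macrophage, 3 plasma cell and 1 erythroid genes were higher, against 5.75% of all genes. By the same measure 4 primitive blood cell, 2 B cell and 1 NK cell genes were lower, against 4.45% of all genes, and 0 dendritic cell genes passed either way. None of these marker genes passed an adjusted p of 0.05. A signal is a share of each array's RNA, and the part that other cell types have in the T lineage values was not tested.

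**Figure D4:**
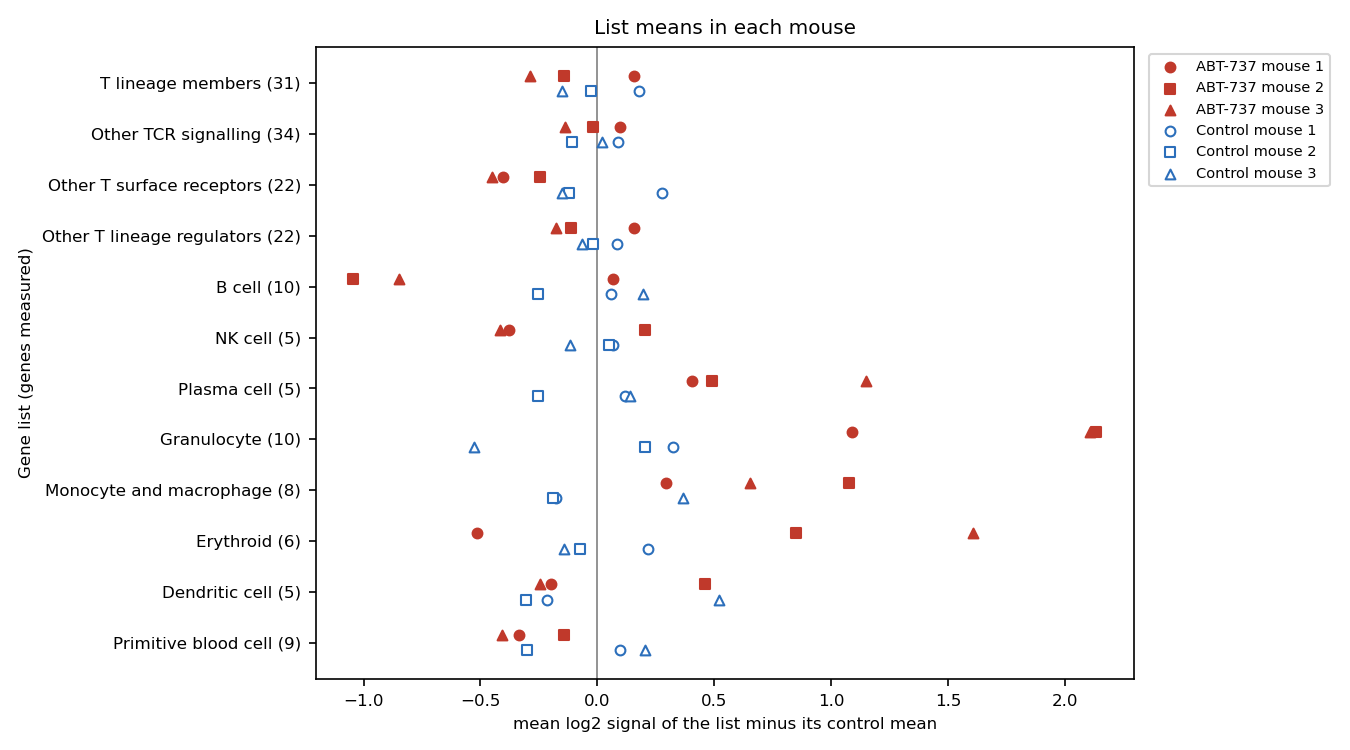
Mean log2 signal of each gene list in each mouse, minus the list's mean in the controls, with the number of genes measured in brackets and ABT-737 mice drawn above control mice. The T lineage list stays between -0.29 and 0.18 in all mice, while the granulocyte list reaches 2.14 in ABT-737 mice and the B cell list -1.05.

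The T lineage counts depended on single mice, though no member passed the adjusted threshold in any of the 13 alternatives. Without ABT-737 mouse 1, 510 genes of the whole table passed it, none of them a member, and 6 members were lower at an unadjusted p under 0.05, namely Cd4, Cd2, Ccr7, Sh2d1a, Ikzf2 and Satb1, against 4.48% of all genes, with Lcp2 higher. The median difference was then -0.23. Without ABT-737 mouse 2, the lower members were Cd8a, Cd8b1, Tbx21 and Ikzf2, against 5.46% of all genes. Without ABT-737 mouse 3 or without control mouse 1, none was lower or higher at an unadjusted p under 0.05, and the median was -0.02 and -0.01. Without control mouse 3 the lower members were Ccr7 and Zap70, against 3.31% of all genes, and the median was -0.19.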

How the data were processed

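Biotin-labelled RNA of the 6 spleen samples was put on exon arrays. Judged by its range, the table the authors deposited holds log2 signals. The build was mm9, per the submitters' processing notes. The sources used here state no normalization, summarisation or filter. No background signal was used, and each group has 3 arrays.

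Of 23332 entries, 14996 had 1 gene symbol in the platform annotation, 1019 several and 7317 none. Of those with 1 symbol, 14941 were matched by Entrez number to RefSeq genes of GRCm38.p6, which changed 0 symbols. The highest-mean entry was kept for the 135 genes with more than 1. Mice were grouped by the treatment label and numbered in accession order, which pairs nothing.

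Differences were fitted with limma 3.58.1 in R 4.3.3 (lmFit, eBayes) over 14860 genes, with Benjamini-Hochberg adjustment over all of them, and tested on simulated data. Figures used matplotlib 3.10.9. Alternatives were quantile normalization, median centring, leaving out the dimmest 30% of genes, trended and robust variance, array weights, entry means, a sex covariate and leaving out each mouse. All members are described; members at an unadjusted p under 0.05 or without overlap, the CD3 chains and the coreceptors are given per mouse. Of each further T cell list the 3 genes with the smallest p were named, and of each other cell type the 2 with the smallest p, though not all of these are described. Pdcd1, Btla, Slamf6, the per-mouse values of further members, the within-array measures, the count of genes highest in 1 mouse and the choice of promoters to print were chosen after their values were seen. A fit relative to the CD3 chains was also added after seeing the data and is given with the alternatives. Members and lists were chosen with earlier results of these data known.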

Additional observations from a re-analysis of the deposited data

How the results depend on the processing

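No paired analysis was possible because replicate numbers follow accession order and tie no ABT-737 mouse to a control mouse. No member passed an adjusted p of 0.05 under any alternative, while of all genes 0 passed as reported, 14 without the dimmest 30%, 2 with array weights, 1 without ABT-737 mouse 3 and 510 without ABT-737 mouse 1. The 2 members lower at an unadjusted p under 0.05 became 4 after quantile normalization, 5 after median centring and 1 with trended and robust variance, and ran from 0 to 6 when mice were left out in turn. The share of all genes lower, 4.45% as reported, was then 9.47%, 8.84% and 4.21%, and 2.19% to 5.63% with mice left out. The 1 higher member became 0 after centring, without the dimmest 30% and with the sex covariate, against 4.16%, 7.73% and 4.48% of all genes, and ran from 0 to 1, against 3.07% to 10.3%. Members below all controls, 1 as reported, were 2 after quantile normalization and after centring, against 13.7% and 14.2% of all genes, and ran from 1 to 9, the 9 being without ABT-737 mouse 1, against 11.9% of all genes. Members above all controls, 1 as reported, were 0 after centring, against 4.08% of all genes, and ran from 1 to 3, the 3 being without ABT-737 mouse 3, against 8.35%. The cause of these shifts was not tested. Direction and side of the unadjusted threshold held for 18 to 29 of 31 members when a mouse was left out. The sex covariate marks control mouse 3 alone and therefore gives the estimates found without that mouse. Entry means left the differences of the members unchanged, because no member had more than 1 entry. Counts out of 13 alternatives therefore include settings that could not differ. The median over all genes was -0.06 after quantile normalization and -0.11 after centring.

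Signs turned for genes near 0: Cd3e was -0.017 after centring and -0.023 with the sex covariate. Thy1 was -0.036, -0.077 and -0.018 under quantile normalization, centring and the sex covariate. Cd96 was 0.018 and Lat 0.0072 with array weights. Ubash3a was -0.01 after centring and -0.025 with the sex covariate. Rasgrp1 was -0.0097, -0.02 and -0.048 under quantile normalization, centring and array weights. With mice left out in turn, differences ran from -0.17 to 0.21 for Cd3e, -0.32 to 0.045 for Cd247, -0.092 to 0.17 for Thy1, -0.18 to 0.047 for Cd96, -0.018 to 0.60 for Txk, -0.13 to 0.23 for Prkcq, -0.17 to 0.10 for Lat, -0.033 to 0.29 for Themis, -0.025 to 0.17 for Ubash3a, -0.078 to 0.19 for Rasgrp1 and -0.038 to 0.20 for Bcl11b.

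A fit of every gene relative to the CD3 mean of its array was added after seeing the data, and its results were seen before its validity was questioned. It called 308 genes at a limma adjusted p under 0.05, among them Icos (-1.10, adjusted p = 0.0100) and Pdcd1 (-1.13, adjusted p = 0.00956), and 0 members. Members lower at an unadjusted p numbered 1 (Ccr7) and higher 1 (Lef1), with 3 below and 2 above all controls, against 1.18%, 5.85%, 2.40% and 3.16% of all genes in that fit. The error of the CD3 mean is shared by all genes there and treated as independent, so its p values are not relied on.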
